A study of Mus musculus with 6 samples.

Results

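The nuclear-encoded subunits of the mitochondrial respiratory chain and of ATP synthase were examined in cap-enriched liver RNA of 3 SHP -/- and 3 wild-type mice. Members were the genes whose symbol began with Ndufa, Ndufb, Ndufc, Ndufs or Ndufv and a number, with Uqcr, with Cox followed by a digit of 4 to 8, or with Atp5, together with Ndufab1, Sdha, Sdhb, Sdhc, Sdhd and Cyc1, and that had counts in all 6 libraries' cells of the deposited table. This gave 83 members of 19594 genes with counts. Another 3 genes matched by name, Cox6a2, Cox7b2 and Cox8c, had empty cells and no value. By their current assignment 36 members belonged to complex I, 4 to complex II, 8 to complex III, 15 to complex IV and 15 to complex V, and 5 matched the name without being structural subunits. A low-count filter left 76 members that could be tested.

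The SHP -/- group carried a knockout of SHP, the nuclear receptor encoded by Nr0b2 that has no DNA-binding domain and represses other transcription factors. All 6 mice were males of a C57BL6 background aged 2 months, and the knockout allele is not described further in the labels. A tight-binding form of EIF4E, which holds the 5′ cap of mRNA, was used to select the RNA. Values therefore refer to RNA enriched for capped transcripts, which still held mitochondrial transcripts, and not to total RNA. Nothing beyond the design text's 3 mice per genotype describes the replicates, so p-values measure the spread between these libraries.

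The respiratory chain passes electrons from NADH (complex I) and succinate (complex II) through ubiquinone, complex III and cytochrome c to oxygen at complex IV, and the proton gradient this builds drives ATP synthesis by complex V. The complexes, apart from complex II, join subunits made from nuclear genes with subunits made from the mitochondrial genome, and the nuclear genes are often described as expressed together under factors such as NRF1, GABP, ERRα and the PGC-1 coactivators. In liver the chain supports gluconeogenesis, urea synthesis and the oxidation of fatty acids.

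Library totals ran from 4494353 to 7225842 counts in knockout and from 4982530 to 6155064 counts in wild type. Nr0b2 had 29, 36 and 77 counts in the knockout libraries and 104, 59 and 85 counts in the wild-type libraries, which was 8.01 ± 2.03 CPM in knockout and 14.5 ± 2.88 CPM in wild type (SD, n = 3 each; CPM, counts relative to the scaled library size). The log2 difference of Nr0b2 was −0.81 ± 0.25 (SE; limma voom, adjusted p = 0.0443), so its transcripts were lower in knockout but present. With each library left out in turn, the adjusted p of Nr0b2 passed the threshold only without knockout library 3 (−1.06) and otherwise reached up to 0.123. Hepatocyte markers were abundant in every library, with a summed level of 77390 to 84530 CPM in knockout and 69920 to 92290 CPM in wild type over 7 genes. Rows on the mitochondrial chromosome took 7.10%, 6.75% and 5.66% of counts in knockout and 10.3%, 10.2% and 10.2% in wild type. The labels do not place libraries in lanes, and an effect of lane cannot be told apart from that of genotype.

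Members of complexes I, III and V were both higher and lower in knockout, while complexes II and IV each had 1 member past the threshold, which was higher. Of 76 members tested, 13 were higher in knockout (17.1%, against 7.58% of all 11794 genes tested) and 8 were lower (10.5%, against 6.94% of all genes), while 55 did not pass the threshold of an adjusted p under 0.05. After adjustment for base composition, a step chosen after the data were seen, 4 members were higher (against 3.22% of 11478 genes) and 7 lower (against 2.89%). Complexes I and V then still had members on both sides, with 2 higher and 3 lower in complex I and 2 higher and 1 lower in complex V, while 1 member of complex III and 2 of complex IV were past the threshold, all lower, and those of complex II did not pass. The median log2 difference over the 76 members was 0.04, beside −0.01 over all genes, and single members ran from −3.97 to 0.83, with 42 positive and 34 negative values. In 35 members (46.1%) every knockout library lay on one side of every wild-type library, 21 above and 14 below, which was also the case for 35.1% of all genes tested. Together the members took 0.988%, 0.999% and 1.05% of counts in knockout and 1.02%, 0.948% and 0.953% in wild type. In bulk liver, fewer cells of a type and less RNA per cell cannot be told apart.

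**Figure D1:**
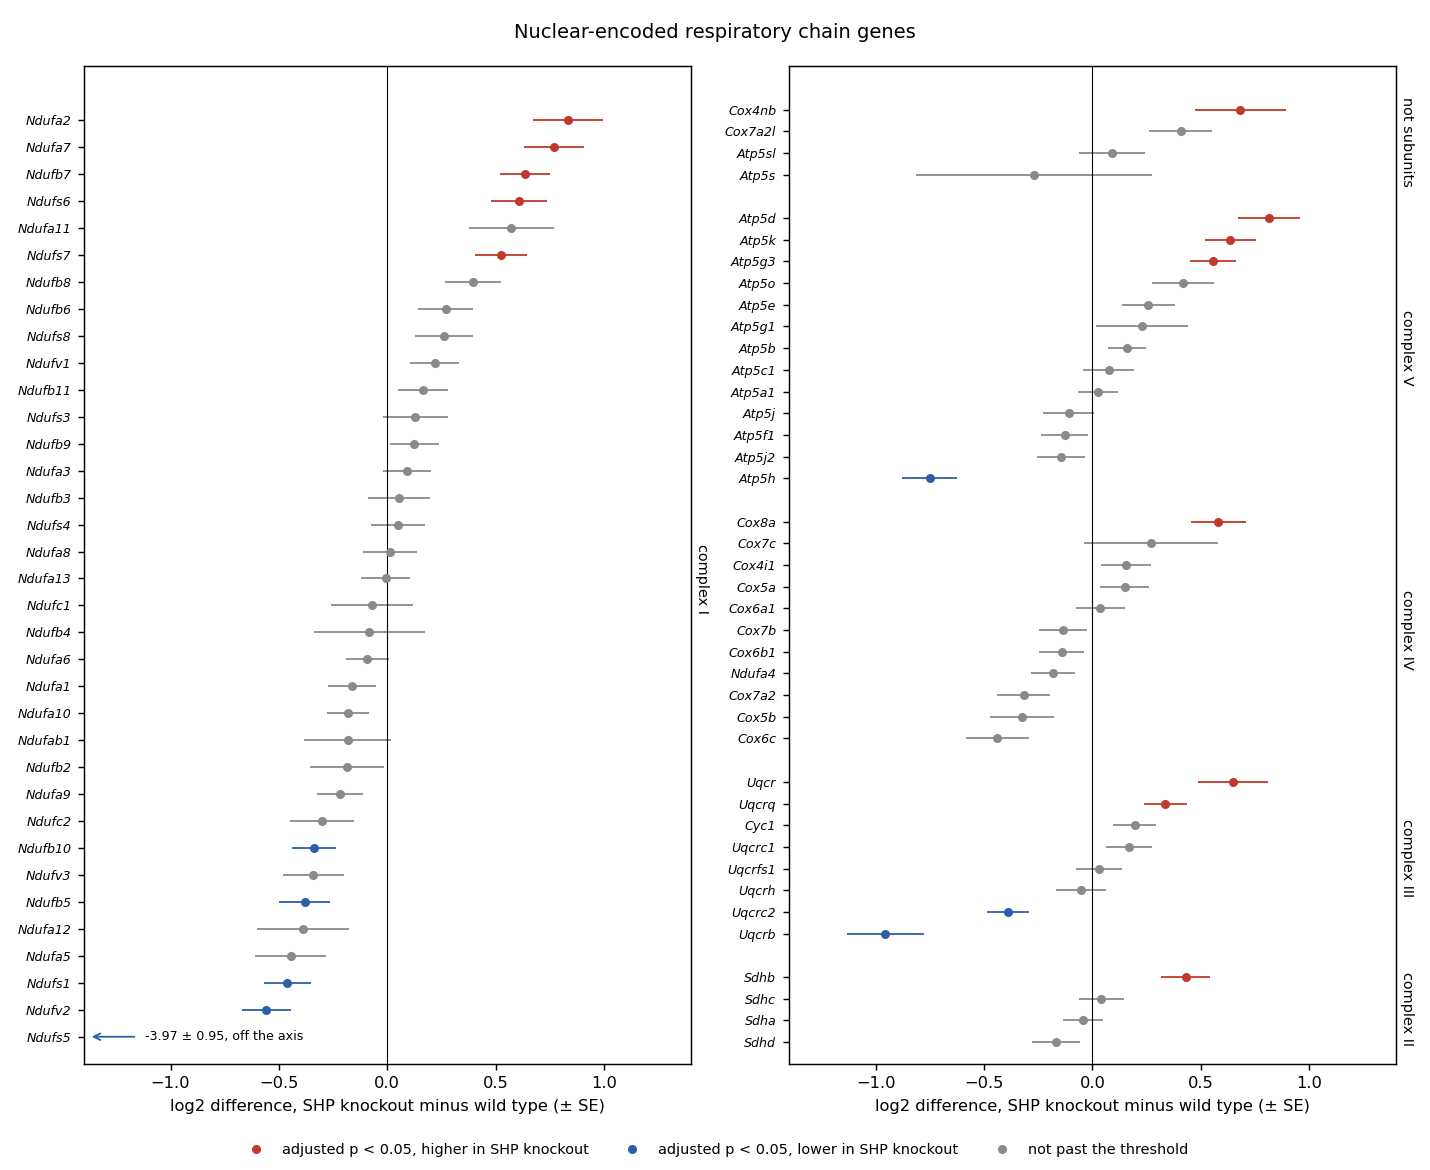
Log2 difference (knockout minus wild type, horizontal axis, with its SE) of members tested, 1 row per gene, grouped by complex. Members past the threshold lie on both sides of 0 in complexes I, III and V, and Ndufs5 at −3.97 lies beyond the axis.

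Promoter sequences are shown for the members past the threshold whose 250 bases before the RefSeq start (GRCm38.p6) held the binding motif of NRF1, a factor often named as a shared regulator of these genes. The motif searched reads GCGC, then A and any base, then GCGC, on either strand, and the match is in capitals. Ndufs5 (chr4:123718187-123718436, minus strand) and Atp5h (chr11:115419920-115420169, minus strand) were lower in knockout, and Atp5k (chr5:108434400-108434649, minus strand) and Ndufs6 (chr13:73328483-73328732, minus strand) were higher, so members with the match lay on both sides. Each sequence runs 5′ to 3′ on the strand of the gene and ends 1 base before the start.
Ndufs5: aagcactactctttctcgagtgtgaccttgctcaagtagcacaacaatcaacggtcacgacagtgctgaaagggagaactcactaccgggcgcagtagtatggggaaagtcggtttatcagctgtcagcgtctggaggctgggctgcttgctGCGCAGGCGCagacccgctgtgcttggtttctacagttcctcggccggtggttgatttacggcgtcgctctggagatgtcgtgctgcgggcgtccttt
Atp5h: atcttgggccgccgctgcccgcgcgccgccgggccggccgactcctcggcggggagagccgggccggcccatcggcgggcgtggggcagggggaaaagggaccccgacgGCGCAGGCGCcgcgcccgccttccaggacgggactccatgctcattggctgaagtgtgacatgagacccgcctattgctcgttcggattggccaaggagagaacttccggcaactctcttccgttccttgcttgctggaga
Atp5k: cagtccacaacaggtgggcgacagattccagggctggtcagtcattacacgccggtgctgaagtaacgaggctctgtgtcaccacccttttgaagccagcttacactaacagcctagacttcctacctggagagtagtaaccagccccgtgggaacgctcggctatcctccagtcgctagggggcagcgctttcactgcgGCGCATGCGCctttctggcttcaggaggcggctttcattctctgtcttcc
Ndufs6: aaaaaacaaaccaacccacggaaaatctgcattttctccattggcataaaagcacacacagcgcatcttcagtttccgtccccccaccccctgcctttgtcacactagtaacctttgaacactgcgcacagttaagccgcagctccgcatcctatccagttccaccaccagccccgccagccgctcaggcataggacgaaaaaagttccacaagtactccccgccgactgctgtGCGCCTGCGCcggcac
The last base of the match lay 89 bases before the start in Ndufs5, 132 in Atp5h, 41 in Atp5k and 7 in Ndufs6. The 250 bases were 56.4% G or C in Ndufs5, 69.6% in Atp5h, 57.6% in Atp5k and 55.2% in Ndufs6.

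RefSeq promoters were at hand for 66 of the 83 members. The NRF1 motif stood in 13 of them (19.7%), against 4.23% of the 27025 genes with a promoter in the same table. The ETS-family motif CCGGAAG or its reverse complement CTTCCGG, which the GABP factor recognises, stood in 12 members (18.2%), against 7.83% of those genes, and 3 members held both. Of members with a promoter, the NRF1 motif was found in 2 of 10 that were higher in knockout, in 2 of 5 that were lower and in 8 of 46 that did not pass the threshold, and the remaining match was in a member that was not tested. Among complexes it was found in 6 of 32 members of complex I, 2 of 3 of complex II, 0 of 4 of complex III, 1 of 12 of complex IV and 4 of 13 of complex V. The 27025 genes were not limited to genes tested in these libraries, nor matched to the members in promoter base composition. Whether the larger shares are particular to the members was not tested. A match is a description of these letters and not of binding.

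Complex I takes electrons from NADH through a matrix arm and pumps protons through a membrane arm. Its 36 members divided evenly, as 5 were higher and 5 lower while 26 did not pass, and their summed level was 2690 ± 38.2 CPM in knockout and 2689 ± 97.9 CPM in wild type (SD, n = 3 each). The median log2 difference was 0.00, with 18 positive and 18 negative values. By library the sum was 2683, 2656 and 2731 CPM in knockout and 2791, 2681 and 2595 CPM in wild type, and the groups overlapped.

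Of the 7 nuclear core subunits of complex I, among them those that hold the flavin and the iron-sulfur clusters, 1 was higher and 2 were lower. Ndufs7, which holds the terminal iron-sulfur cluster next to the ubiquinone site, was at 75.8, 76.4 and 78.0 CPM in knockout and 54.4, 60.1 and 47.3 CPM in wild type (log2 difference 0.52 ± 0.12, adjusted p = 0.0118). All 3 knockout libraries of Ndufs7 stood above the wild-type ones. Ndufv2, an iron-sulfur subunit of the NADH-oxidising tip, was at 84.9, 100 and 101 CPM in knockout and 153, 137 and 134 CPM in wild type (−0.56 ± 0.11, adjusted p = 0.00601). Ndufs1, the largest subunit, which carries several iron-sulfur clusters of the matrix arm, was at 108, 114 and 128 CPM in knockout and 153, 173 and 158 CPM in wild type (−0.46 ± 0.11, adjusted p = 0.0128). The groups of Ndufv2 and of Ndufs1 did not overlap either. Without wild-type library 3 Ndufs7 came to 0.43 and did not pass (adjusted p = 0.0698), nor did Ndufs1 without knockout library 1 or 2 (adjusted p = 0.0553 and 0.0503). Ndufv1, which binds NADH and the flavin and pairs with Ndufv2, averaged 169 ± 21.9 CPM in knockout and 145 ± 5.20 CPM in wild type (0.22 ± 0.11, adjusted p = 0.207). Ndufs3 and Ndufs8, also core subunits, had log2 differences of 0.13 and 0.26 and did not pass the threshold, with adjusted p from 0.200 to 0.604.

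Of the 29 accessory subunits of complex I, which surround the core, 4 were higher and 3 lower. Ndufa2, an accessory subunit of the matrix arm with a thioredoxin-like fold, was at 103, 92.9 and 90.6 CPM in knockout and 61.1, 64.6 and 39.4 CPM in wild type. Its groups did not overlap, and its log2 difference of 0.83 ± 0.16 (adjusted p = 0.00486) was the largest increase among members tested. Ndufa7, another matrix-arm subunit (ENSMUSG00000041881, mm9 chromosome 17, 33961552 to 33975253), was at 56.8, 52.2 and 47.9 CPM in knockout and 33.1, 31.8 and 27.0 CPM in wild type (0.77 ± 0.14, adjusted p = 0.00326). Ndufb7, a membrane-arm subunit facing the intermembrane space, averaged 74.4 ± 4.12 CPM in knockout and 47.9 ± 2.75 CPM in wild type (0.64 ± 0.12, adjusted p = 0.00356). Ndufs6, a zinc-binding matrix-arm subunit, averaged 51.6 ± 1.53 CPM in knockout and 34.2 ± 3.52 CPM in wild type (0.61 ± 0.13, adjusted p = 0.00836). The knockout libraries lay above the wild-type libraries in each of these 4 members, and without wild-type library 3 Ndufs6 came to 0.52 (adjusted p = 0.0550).

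The 3 accessory subunits of complex I that were lower all belong to the membrane arm. Ndufs5 (ENSMUSG00000028648, mm9 chromosome 4, 123389953 to 123395445) had 15, 0 and 0 counts in the knockout libraries and 27, 24 and 24 counts in the wild-type libraries. Knockout library 1 thus held reads of Ndufs5 while the other two held none, and at 3.42 CPM it came close to the lowest wild-type library at 3.81 CPM. The fitted log2 difference of −3.97 ± 0.95 (adjusted p = 0.0145) depends on the 0.5 added to each count and is not a bound, and without knockout library 2 or 3 it was −3.19 or −2.92 with adjusted p = 0.0633 or 0.0532. Ndufb5 averaged 56.8 ± 1.73 CPM in knockout and 73.9 ± 7.71 CPM in wild type (−0.38 ± 0.12, adjusted p = 0.0471). Ndufb10 averaged 133 ± 7.45 CPM in knockout and 168 ± 8.40 CPM in wild type (−0.34 ± 0.10, adjusted p = 0.0414), and none of the 6 fits that left out 1 library kept its call, with adjusted p up to 0.162. The call of Ndufb5 held in 1 of those 6 fits, the one without wild-type library 1, with adjusted p up to 0.178 in the others. Ndufa6, an accessory subunit of the matrix arm and the complex I member with the highest level per length, averaged 156 ± 3.03 CPM in knockout and 166 ± 9.66 CPM in wild type (−0.09 ± 0.10, adjusted p = 0.569).

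Complex II, succinate dehydrogenase, is made from nuclear genes alone and links the tricarboxylic acid cycle to ubiquinone. Sdhb, its iron-sulfur subunit, was the 1 member of 4 past the threshold, at 241, 202 and 239 CPM in knockout and 188, 162 and 156 CPM in wild type. The groups did not overlap (0.43 ± 0.11, adjusted p = 0.0220), but 4 of the 6 fits without 1 library lost the call, namely those without knockout library 1 or 3 or wild-type library 2 or 3 (adjusted p from 0.0612 to 0.109). Sdha, the flavoprotein that oxidises succinate, averaged 646 ± 15.9 CPM in knockout and 667 ± 31.0 CPM in wild type (−0.04 ± 0.09, adjusted p = 0.788). The membrane anchors Sdhc and Sdhd had log2 differences of 0.04 ± 0.10 and −0.17 ± 0.11, with adjusted p = 0.820 and 0.325. The summed level of the complex was 1121 ± 27.9 CPM in knockout and 1096 ± 33.2 CPM in wild type, and the libraries overlapped.

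Complex III, which hands electrons from ubiquinol to cytochrome c, held the largest decrease among members tested other than Ndufs5 together with 2 increases. Uqcrb, the ubiquinone-binding protein (ENSMUSG00000021520, mm9 chromosome 13, 67001556 to 67006261), was at 24.7, 31.0 and 25.4 CPM in knockout and 43.8, 67.5 and 48.9 CPM in wild type. Its highest knockout library stayed below its lowest wild-type library, with a log2 difference of −0.95 ± 0.18 (adjusted p = 0.00366). Uqcrc2, one of the large core proteins on the matrix side, averaged 177 ± 4.82 CPM in knockout and 232 ± 13.1 CPM in wild type (−0.39 ± 0.10, adjusted p = 0.0184), and lost its call without knockout library 2 or wild-type library 2 or 3 (adjusted p from 0.0588 to 0.0795). Uqcr, now called Uqcr11, a small membrane subunit, was at 83.8, 76.2 and 81.4 CPM in knockout and 57.0, 63.8 and 38.3 CPM in wild type. Wild-type library 3 was the lowest of the 6 libraries for Uqcr, and the log2 difference of 0.65 ± 0.16 (adjusted p = 0.0171) became 0.42 without it (adjusted p = 0.0806). Uqcrq, another small subunit, averaged 233 ± 6.86 CPM in knockout and 185 ± 9.35 CPM in wild type (0.34 ± 0.10, adjusted p = 0.0341), and its call held only in the fit without wild-type library 2 of the 6 without 1 library, with adjusted p up to 0.128. The nuclear-encoded redox subunits did not pass the threshold: cytochrome c1 (Cyc1) averaged 205 ± 10.4 CPM in knockout and 179 ± 8.77 CPM in wild type (0.20 ± 0.10, adjusted p = 0.199), and the Rieske protein (Uqcrfs1) averaged 108 ± 2.88 CPM in knockout and 106 ± 8.73 CPM in wild type (0.03 ± 0.11, adjusted p = 0.881). The summed level of complex III was 1175 ± 25.3 CPM in knockout and 1129 ± 90.0 CPM in wild type.

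Complex IV, cytochrome c oxidase, takes its catalytic subunits from the mitochondrial genome, and its nuclear members surround them. Of 11 members tested, 1 was higher (9.09%, against 7.58% of all genes tested) and 10 did not pass the threshold. The median log2 difference was −0.14. Cox8a, the widely expressed form of a small membrane subunit, was at 179, 175 and 178 CPM in knockout and 145, 113 and 101 CPM in wild type (0.58 ± 0.13, adjusted p = 0.00913, and 0.46 with adjusted p = 0.0603 without wild-type library 3). The knockout libraries of Cox8a were close together and the wild-type libraries spread, without overlap. Cox4i1, which takes part in the regulation of the enzyme by ATP, averaged 280 ± 14.5 CPM in knockout and 253 ± 34.2 CPM in wild type (0.16 ± 0.11, adjusted p = 0.386). Ndufa4, first taken for a complex I subunit and now placed in complex IV, averaged 230 ± 6.83 CPM in knockout and 262 ± 22.3 CPM in wild type (−0.18 ± 0.10, adjusted p = 0.249). Cox6a1, Cox6b1 and Cox7a2, the widely expressed forms of their subunits, had log2 differences of 0.04, −0.14 and −0.32, with adjusted p from 0.0935 to 0.863. The summed level of complex IV was 1519 ± 47.2 CPM in knockout and 1544 ± 113 CPM in wild type.

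The tissue-restricted isoforms were near the floor in both genotypes. Cox4i2, the lung isoform, had 0, 2 and 0 counts in knockout and no count in wild type. Cox8b, the muscle and brown fat form, had 2, 0 and 0 counts in knockout and none in wild type, and Cox6b2, the testis form, had 1, 0 and 4 counts in knockout and 1, 0 and 0 counts in wild type. Cox7a1, the muscle form, had 3, 3 and 6 counts in knockout and 14, 4 and 12 counts in wild type. None of these isoforms passed the low-count filter. Of 9 markers of skeletal and heart muscle only 1, Actc1, had counts in the table, with a sum of at most 0.589 CPM in a knockout library and 0 in every wild-type library. Per kilobase of counted exon sequence, Cox7a2 stood at 205 ± 25.1 CPM in knockout and 256 ± 22.0 CPM in wild type, and Cox7a1 at 1.90 ± 0.298 CPM in knockout and 4.69 ± 2.19 CPM in wild type.

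Complex V, the ATP synthase, had the largest shift in summed level of the 5 complexes, with 3 members higher, 1 lower and 9 not past the threshold of 13 tested. The sum was 3535, 3434 and 3582 CPM in knockout and 3297, 3180 and 3089 CPM in wild type, a ratio of 1.10 with every knockout library above every wild-type library. Its median log2 difference was 0.16. Atp5b and Atp5a1, the β and α subunits of the catalytic head and the most abundant members in CPM, made up most of this sum in both genotypes. Atp5d and Atp5g3, described below, were also higher in knockout, and the sums were not adjusted for base composition. Atp5b was at 1245, 1204 and 1239 CPM in knockout and 1117, 1107 and 1077 CPM in wild type, with groups that did not overlap but a log2 difference of 0.16 ± 0.09 that did not pass the threshold (adjusted p = 0.245). Atp5a1 averaged 1055 ± 48.1 CPM in knockout and 1037 ± 43.6 CPM in wild type (0.02 ± 0.09, adjusted p = 0.890).

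**Figure D2:**
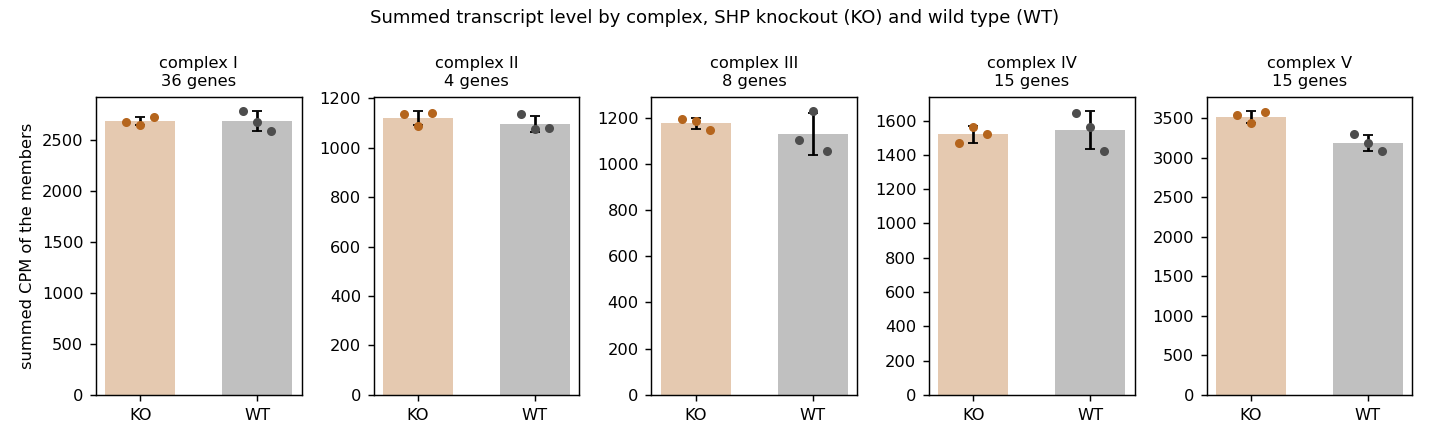
Summed CPM of the members of each complex (vertical axes start at 0) in knockout and wild type; bars are means, error bars are SD and points are the 3 libraries of each group. The groups are separate in complex V, at 3517 ± 75.5 CPM in knockout and 3188 ± 104 CPM in wild type, and overlap in the other complexes. The sums are not adjusted for base composition.

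Within ATP synthase the members past the threshold came from different parts of the enzyme. Atp5d, the δ subunit at the foot of the central stalk, was at 186, 198 and 203 CPM in knockout and 126, 130 and 85.4 CPM in wild type (0.81 ± 0.14, adjusted p = 0.00273). Atp5k, the e subunit of the membrane part (ENSMUSG00000050856, mm9 chromosome 5, 108862263 to 108863467), was at 86.3, 82.1 and 99.9 CPM in knockout and 59.2, 56.3 and 57.2 CPM in wild type (0.64 ± 0.12, adjusted p = 0.00371). Both were separate between genotypes. A copy of Atp5k is named as a pseudogene in a later annotation, so its reads may have been split between them. Atp5g3, 1 of 3 genes that encode the same mature c subunit of the proton-carrying ring (ENSMUSG00000018770, mm9 chromosome 2, 73746504 to 73749383), was at 242, 252 and 261 CPM in knockout and 172, 189 and 154 CPM in wild type (0.56 ± 0.11, adjusted p = 0.00433). Atp5g3 supplied most c-subunit reads: Atp5g1 averaged 14.5 ± 1.53 CPM in knockout and 12.4 ± 2.72 CPM in wild type (0.23 ± 0.21, adjusted p = 0.508), and Atp5g2 had 1, 1 and 1 counts in knockout and 2, 0 and 2 counts in wild type. Over the 3 genes the c-subunit sum was 266 ± 8.62 CPM in knockout and 184 ± 18.5 CPM in wild type, a ratio of 1.44. Atp5h, the d subunit of the peripheral stalk (ENSMUSG00000034566, mm9 chromosome 11, 115277003 to 115281276), was at 31.1, 31.6 and 31.7 CPM in knockout and 51.2, 57.4 and 51.1 CPM in wild type. It was the lower member of complex V, with groups far apart and a log2 difference of −0.75 ± 0.13 (adjusted p = 0.00228). Atp5l, the g subunit of the membrane part, was below the count filter and not tested, and it is named after its values were seen. It had 8, 16 and 17 counts in knockout and 2, 6 and 4 counts in wild type, or 2.42 ± 0.668 CPM in knockout and 0.741 ± 0.462 CPM in wild type. The groups of Atp5l did not overlap, but it has named pseudogene copies and its counts are uncertain. The remaining head subunits, Atp5c1 (γ) and Atp5e (ε), had log2 differences of 0.07 ± 0.12 and 0.26 ± 0.12, with adjusted p = 0.719 and 0.170.

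**Figure D3:**
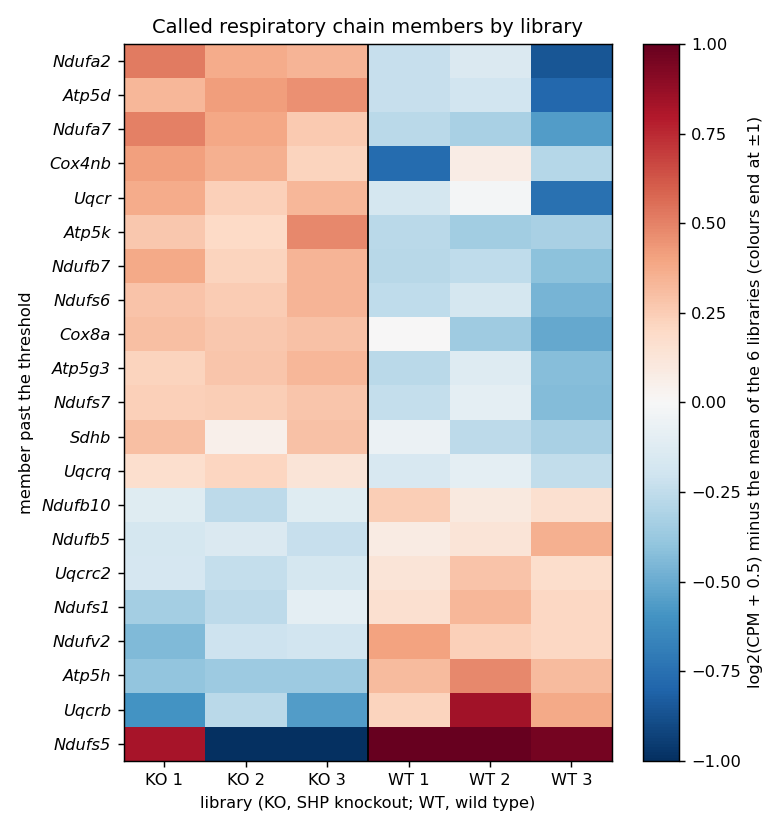
Level of the 21 members past the threshold in each library, as log2(CPM + 0.5) minus the mean of the 6 libraries, with knockout libraries on the left and colours ending at ±1. Wild-type library 3 is the lowest library for 11 of the 13 members that were higher in knockout, and knockout library 1 departs from the other knockout libraries for Ndufs5.

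Of the 5 members that matched by name alone, 1 was higher, 3 did not pass the threshold and 1 was not tested. Cox4nb, now called Emc8, a subunit of the endoplasmic reticulum membrane complex, averaged 22.2 ± 1.52 CPM in knockout and 14.3 ± 4.21 CPM in wild type (0.68 ± 0.21, adjusted p = 0.0443), and its call held only without wild-type library 2 among the 6 fits without 1 library, with adjusted p up to 0.152. Cox7a2l, a supercomplex assembly factor, averaged 39.6 ± 5.69 CPM in knockout and 29.6 ± 1.23 CPM in wild type (0.41 ± 0.14, adjusted p = 0.0753). Atp5sl, now called Dmac2 and known for complex I assembly, and Atp5s, a coupling factor of ATP synthase, had log2 differences of 0.09 ± 0.15 and −0.27 ± 0.55, with adjusted p = 0.728 and 0.782. Ndufa4l2, the hypoxia-induced relative of Ndufa4, had 3, 4 and 4 counts in knockout and 8, 1 and 4 counts in wild type and was not tested. Uqcr10, a complex III subunit listed under the clone name 1110020P15Rik and therefore outside the naming rule, averaged 113 ± 10.7 CPM in knockout and 84.4 ± 4.71 CPM in wild type (0.41 ± 0.11, adjusted p = 0.0259), and lost its call without knockout library 2 or wild-type library 1 or 3 (adjusted p up to 0.111). Usmg5 and Atp5mpl (listed as 2010107E04Rik), complex V subunits also outside the rule, did not pass. Their log2 differences were 0.39 ± 0.18 and −0.04 ± 0.14 (adjusted p = 0.167 and 0.871). The summed levels of complexes III and V leave these genes out.

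The exon sequence counted was 486 bases long in Ndufa4, 3148 in Atp5a1 and 4237 in Atp5b. How far these lengths match the transcripts present was not tested, and an order by level per kilobase depends on them. Atp5b, the highest in CPM, stood at 290 ± 5.25 CPM per kilobase in knockout and 260 ± 4.97 in wild type. Levels per kilobase of counted exon sequence differed widely between members of a complex. The highest was Ndufa4, at 474 ± 14.1 CPM per kilobase in knockout and 539 ± 45.9 in wild type, followed in knockout by Cox4i1 (414 ± 21.5 in knockout, 374 ± 50.6 in wild type), Cox8a (362 ± 4.13 in knockout, 245 ± 46.4 in wild type) and Cox6b1 (350 ± 6.05 in knockout, 387 ± 37.4 in wild type). In knockout Cox6b1 and Cox6a1 were closer to each other than the spread of Cox6a1, which stood at 343 ± 15.2 in knockout and 336 ± 45.8 in wild type. In complex V Atp5a1 stood at 335 ± 15.3 in knockout and 329 ± 13.9 in wild type, and Atp5j2, at 298 ± 28.9 in knockout and 329 ± 25.7 in wild type, did not differ from it beyond the spread in wild type. Ndufa6 led complex I with 322 ± 6.27 in knockout and 344 ± 20.0 in wild type. Sdha led complex II with 283 ± 6.97 in knockout and 292 ± 13.6 in wild type, and Cyc1 led complex III with 178 ± 9.05 in knockout and 155 ± 7.60 in wild type. Members past the threshold were not confined to low levels: Uqcrb stood at 56.4 ± 7.29 CPM per kilobase in knockout and 112 ± 26.0 in wild type, and Ndufa2 at 232 ± 15.7 in knockout and 134 ± 33.2 in wild type.

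Base composition moved with genotype in these libraries and with the members' differences. The deviation of a gene from its mean over libraries correlated with the GC content of its transcripts at Spearman's rho 0.359, 0.326 and 0.377 in the knockout libraries and −0.187, −0.399 and −0.436 in the wild-type libraries, across 11478 genes of one library each, which are not independent. Over deciles of all tested genes by GC, the median log2 difference ran from −0.35 in the lowest decile to 0.39 in the highest. Over the 76 members, which share the same 6 libraries, the log2 difference had Pearson's r 0.319 and Spearman's rho 0.533 with GC, beside 0.440 and 0.520 over all genes. Over all genes tested, the median GC content was 56.0% in those higher in knockout and 45.0% in those lower. Of the 13 members higher in knockout, 12 had a GC content above the median of all tested genes (50.4%), as had 41 of the 76 members tested. Of the 8 members that were lower, 6 lay below it. The exceptions were Atp5g3 at 49.3% among the higher members and Ndufs5 at 53.4% and Ndufb10 at 54.7% among the lower ones. Uqcrb at 41.3% had the lowest GC of the members past the threshold and Atp5d at 60.2% the highest.

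**Figure D4:**
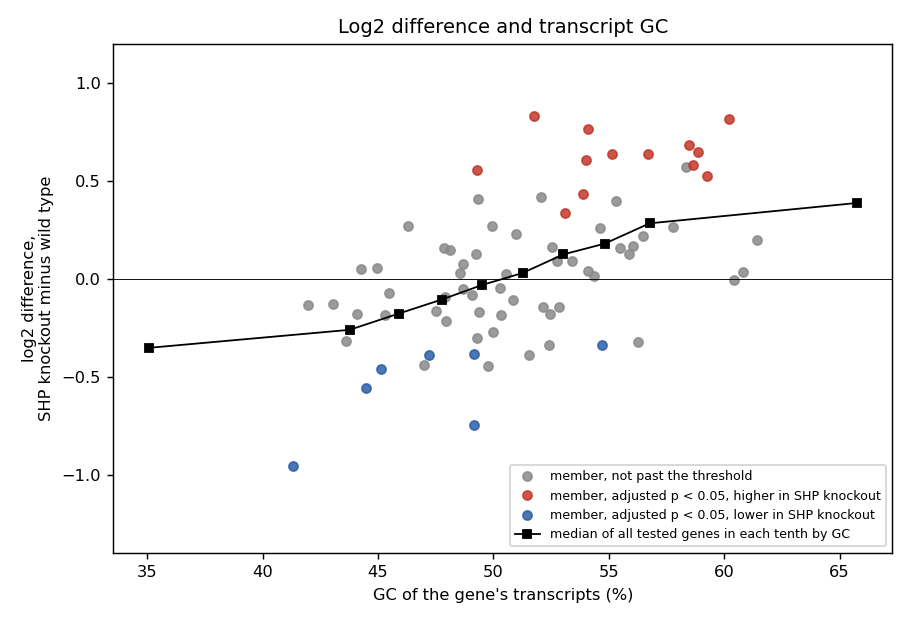
Log2 difference (knockout minus wild type) of members against the GC content of its transcripts in percent, with the median of all tested genes in each GC decile as connected squares. Ndufs5, at −3.97 and 53.4% GC, lies below the axis; the 13 higher members lie above the line of medians and the lower members below it.

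The GC adjustment removed a smooth curve of each library's deviation on GC and left 4 members higher in knockout and 7 lower, with a median log2 difference of −0.01 over the members. Of the 21 members first past the threshold, 8 kept their call and direction. Ndufa2 was at 0.78 ± 0.16 (adjusted p = 0.0109), Ndufa7 at 0.61 ± 0.13 (adjusted p = 0.0157), Atp5g3 at 0.60 ± 0.11 (adjusted p = 0.00434) and Atp5k at 0.43 ± 0.12 (adjusted p = 0.0424). Atp5h was at −0.69 ± 0.12 (adjusted p = 0.00510), Uqcrb at −0.63 ± 0.16 (adjusted p = 0.0391), Ndufb10 at −0.52 ± 0.10 (adjusted p = 0.00656) and Ndufs5 at −4.10 ± 0.95 (adjusted p = 0.0210). Ndufs6 came to 0.45 with adjusted p = 0.0501, and Atp5d to 0.41 with adjusted p = 0.0950. Cox5b, Ndufa13 and Cox6a1, named because they passed only after the adjustment, were at −0.58, −0.42 and −0.38 (adjusted p = 0.0279, 0.0455 and 0.0373), against −0.32, −0.01 and 0.04 without it. Of the core subunits of complex I, 0 passed in this limma fit, and Ndufv2 and Ndufs1 came to −0.33 and −0.25 (adjusted p = 0.115 and 0.179). The part of base composition in the members' differences was not tested beyond this adjustment, which would also remove a difference between genotypes that follows GC.

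**Figure D5:**
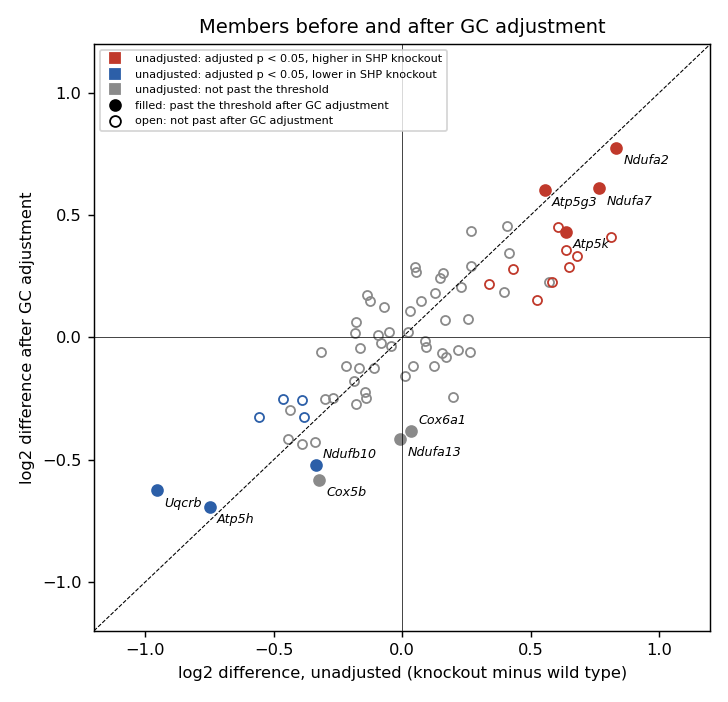
Log2 difference of members before (horizontal axis) and after (vertical axis) GC adjustment, knockout minus wild type, with the line of equality dashed. Filled points passed the threshold after adjustment; Ndufs5, at −3.97 before and −4.10 after, lies outside the axes.

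Leaving out 1 library at a time kept 9 of the 21 calls in all 6 fits: Ndufa2, Ndufa7, Ndufb7, Atp5d, Atp5k and Atp5g3, which were higher, and Uqcrb, Atp5h and Ndufv2, which were lower. Ndufa2, Ndufa7, Atp5k, Atp5g3, Uqcrb and Atp5h passed in each of the 15 fits run, GC adjustment included. Wild-type library 3 bore on the most calls, since 10 of the 21 were lost without it. These were Ndufs6, Ndufs7, Ndufb5, Ndufb10, Sdhb, Uqcr, Uqcrq, Uqcrc2, Cox8a and Cox4nb, with adjusted p from 0.0550 to 0.178.

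The mitochondrially encoded partners of these subunits were mostly lower in knockout. Of 7 tested, 6 were lower and 1 did not pass the threshold, while 6.94% of all genes tested were lower. Their median log2 difference was −0.65, and their summed level was 4952 to 6600 CPM in knockout and 7039 to 9456 CPM in wild type. The largest decrease was in mt-Nd2, a membrane-arm subunit of complex I, at 442, 389 and 341 CPM in knockout and 836, 842 and 1052 CPM in wild type (−1.22 ± 0.12, adjusted p = 7.5e-05). The groups of mt-Nd2 were far apart, and its call held in all 6 fits without 1 library (−1.31 to −1.11). The complex I subunits mt-Nd1 and mt-Nd4 and cytochrome b (mt-Cytb) of complex III had log2 differences of −0.70, −0.46 and −0.73, with adjusted p = 0.00796, 0.0152 and 0.0111. Without wild-type library 3 the count past the threshold was 1 of 7, mt-Nd2, and mt-Nd4 did not pass without knockout library 2 either. These transcripts have low GC and carry no cap of the kind selected, and after GC adjustment 1 of the 7, mt-Nd2, stayed past the threshold at −0.72 (adjusted p = 0.00438). The part of cap selection in this difference was not tested.

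Genes that serve the chain without being subunits were read from lists drawn up with earlier results of these data known. Over all genes tested, 7.58% were higher and 6.94% lower. Of 37 assembly factors tested, 1 was higher and 1 lower: Ecsit, which helps to build complex I, averaged 46.7 ± 3.43 CPM in knockout and 33.9 ± 2.57 CPM in wild type (0.46 ± 0.13, adjusted p = 0.0328), and Cox20, listed as Fam36a and a chaperone of a catalytic complex IV subunit, averaged 10.7 ± 2.33 CPM in knockout and 17.6 ± 2.17 CPM in wild type (−0.78 ± 0.22, adjusted p = 0.0304). Of 11 genes of ubiquinone synthesis and binding tested, Coq10b, a ubiquinone-binding protein, was lower (−0.73 ± 0.22, adjusted p = 0.0446) and 10 did not pass. Cycs, which encodes cytochrome c and stood on the same list, had 0, 0 and 0 counts in knockout and 1, 0 and 0 counts in wild type. It was below the count filter and not tested. Of 16 regulators of mitochondrial biogenesis, Esrra, which encodes ERRα, was higher at 32.7 ± 2.01 CPM in knockout and 19.9 ± 1.85 CPM in wild type (0.73 ± 0.15, adjusted p = 0.00728). Gabpa, which encodes the DNA-binding subunit of GABP, was lower at 52.7 ± 6.43 CPM in knockout and 78.8 ± 4.67 CPM in wild type (−0.57 ± 0.12, adjusted p = 0.00936), as was Tfam, which encodes the factor that packages and transcribes mitochondrial DNA (−0.45 ± 0.13, adjusted p = 0.0377). The other 13 regulators did not pass. Among them were Nrf1 (−0.45 ± 0.19, adjusted p = 0.123), Ppargc1a (0.21 ± 0.29, adjusted p = 0.669) and Ppargc1b (0.38 ± 0.25, adjusted p = 0.333). Of 18 genes of the tricarboxylic acid cycle and pyruvate dehydrogenase, Mdh2 was higher (0.49 ± 0.11, adjusted p = 0.0110), 4 were lower and 13 did not pass. The lower genes with the smallest adjusted p were Pdhb, Sucla2 and Dlat (−0.52, −0.46 and −0.52, with adjusted p from 0.0149 to 0.0184). Of the genes named from these lists, Gabpa kept its call in all 6 fits without 1 library, and Esrra and Mdh2 in all but that without wild-type library 3 (adjusted p = 0.0509 and 0.0655). Pdhb lost its call without wild-type library 2 (adjusted p = 0.0528) and Sucla2 without knockout library 1 or wild-type library 3 (adjusted p up to 0.0807). Ecsit, Cox20 and Dlat kept theirs in 2 of the 6 fits, Coq10b in 1 and Tfam in 0, with adjusted p up to 0.245. None of the genes of these 4 lists passed the limma test after GC adjustment, where Dlat came nearest with adjusted p = 0.0716.

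Markers of other cell types were set beside these results. The shares over all genes tested were 7.58% higher and 6.94% lower. Of 8 macrophage markers tested, 3 were higher in knockout (C1qa, C1qc and Marco, named after their values were seen) and 5 did not pass, with a summed level of 287 to 448 CPM in knockout and 276.5 to 334 CPM in wild type. C1qa kept its call in 5 of the 6 fits without 1 library, C1qc in 2 and Marco in 1 (adjusted p up to 0.161), and after GC adjustment their adjusted p were 0.257, 0.257 and 0.120. Of 7 sinusoidal endothelial markers Lyve1 was higher (0.82 ± 0.22, adjusted p = 0.0244) and 6 did not pass, the median log2 difference of the list was −0.19, and the endothelial sum was 312 to 481 CPM in knockout and 453 to 500 CPM in wild type. Of 7 hepatocyte markers 1, Tat, was lower (−0.35 ± 0.10, adjusted p = 0.0284). Lyve1 kept its call in 2 of the 6 fits without 1 library and Tat in 0 (adjusted p up to 0.0848 and 0.101). After GC adjustment both still passed the limma test, Lyve1 at 0.89 (adjusted p = 0.0263) and Tat at −0.36 (adjusted p = 0.0375). Of 7 stellate and matrix, 5 erythroid and 3 cholangiocyte markers tested, 0 passed. The median log2 differences of these lists were 0.47, 0.59 and −0.25, beside 0.34 for the macrophage list. The part of all these cell types in the members' differences was not tested.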

How the data were processed

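Per the labels' protocols, TRIzol-extracted liver RNA was enriched for capped RNA and sequenced as barcoded paired-end libraries of 36 cycles, 3 to a lane. The submitters' processing notes name Novoalign 2.05.33 and mm9. Not given in the sources used here are the counting tool, how it used strand or reads with several alignments, and the release of the annotation. For every Ensembl gene the authors deposited whole-number counts of each library, and also RPKM values, a log2 ratio and p-value scores for pooled groups, of which the pooled RPKM served only to choose the most abundant member of each complex to name.

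Counts were filled in for 19594 of the 33495 genes listed. Because 4840 lines end early, the deposited columns could not be recorded under the unit of counts, and edgeR and DESeq2 were not run. All values used were whole numbers, so this was a limit of how the columns were recorded. Of counts between 1 and 19, 61.8% were even, so counts may hold both mates of a pair. Genes were tested where at least 3 libraries reached 1.83 CPM (10 counts at the median library) and the total reached 15 counts. Scaling factors for library size (0.966 to 1.03) were trimmed means of M values, computed in R 4.3.3. The voom, lmFit and eBayes functions of limma 3.58.1 were applied to log2 CPM of all 11794 genes (0.5 added to every count), genotype being the only term. The two-sided p-values were Benjamini-Hochberg adjusted over all genes tested, with a threshold of 0.05. The pipeline was tested on simulated data, which held no trend with GC and so cannot speak to base composition. Python 3.11.15, pandas 2.3.3 and matplotlib 3.10.9 were used for tables and plots.

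Members and lists were chosen with earlier results of these data known. One member that the naming rule covers is counted but neither named nor plotted by gene here. The genes named were the members past the threshold, the most abundant of each complex, the redox and catalytic subunits, the isoform families, the members matched by name alone and up to 4 passing genes of each pathway list. A few genes are named outside this choice, among them Nrf1, Ppargc1a and Ppargc1b, which did not pass. GC content came from GENCODE vM21 transcripts, matched by Ensembl identifier for 83 members, and was removed in one alternative by a lowess curve of each library (span 0.3). Promoters came from RefSeq (GRCm38.p6) and were matched by symbol, while gene coordinates are those of the table in mm9. Pseudogene copies were looked for only under a member's own symbol with the suffix -ps. Ndufab1, Uqcrh, Atp5c1, Atp5k and Atp5l have such copies, so their counts are uncertain. Copies under other names were not looked for, so counts of other members, among them Ndufs5 and Atp5g2, may be uncertain too.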

Additional observations from a re-analysis of the deposited data

How the results depend on the processing

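With all 6 libraries 13 members were higher and 8 lower. Leaving out 1 library gave 6 to 12 higher and 3 to 7 lower members, with the fewest higher members without wild-type library 3 and the fewest lower members without knockout library 2. GC adjustment, chosen after the data were seen, left 4 higher and 7 lower members and a median log2 difference of −0.01, and the calls over all genes numbered 702 against 1713. Without wild-type library 3 the calls over all genes numbered 629. Limma trend gave 12 and 7, robust moderation 15 and 9, no filter 12 and 6, median-of-ratios scaling 13 and 8, library totals 13 and 6, and leaving out mitochondrial rows 13 and 8. Fits with edgeR and DESeq2 were not run.

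Over the 76 members tested, GC adjustment changed the sign of 19 and the fits without 1 library that of 12, none of them past the threshold with all 6 libraries. Values are given below mainly for members that were chosen for naming, so neither list is complete. Under GC adjustment Ndufs8 was at −0.0604, Ndufv1 at −0.0527, Cyc1 at −0.24, Cox4i1 at −0.0642, Ndufa4 at 0.0641, Ndufa6 at 0.00999, Atp5sl at −0.0378, Sdhc at −0.12 and Cox6a1 at −0.38. Among members not chosen for naming, Cox7b went from −0.14 to 0.17 and Atp5f1 from −0.13 to 0.15. Uqcrc1 went from 0.17 to −0.08 and Ndufb9 from 0.12 to −0.12. Of these Cox6a1 passed the threshold after adjustment. Over the fits without 1 library, Atp5a1 ran from −0.0084 to 0.0601, Atp5s from −0.73 to 0.31, Uqcrfs1 from −0.02 to 0.10, Cox6a1 from −0.0386 to 0.14 and Atp5sl from −0.0439 to 0.21. Among members not chosen for naming, Ndufa8 ran from −0.07 to 0.10 and Uqcrh from −0.14 to 0.04. The cause of these changes was not tested.

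The deviations of libraries with the same replicate number correlated at −0.0188, −0.0210 and −0.0244 across genes, and no label says that a number marks a shared litter or day. With the replicate block 12 members were higher and 7 lower, the median was 0.04, Cox4nb and Ndufb5 lost their calls (adjusted p = 0.0580 and 0.0504) and Atp5s was at 0.0637.

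Precision is limited by 3 libraries per genotype. Members under the count filter, among them the tissue-restricted isoforms, were not tested, and Ndufs5 with 0 counts in 2 libraries has no stable fold.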
